A study of Mus musculus with 3 samples.

Results

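Short stretches of the mouse autosomes carried very high coverage in all 3 chromatin libraries of this study, the rabbit immunoglobulin G (IgG) control included. They were chosen by their IgG coverage: all bins of 200 bp on chromosomes 1 to 19 (build mm9) with a mean above 10 were taken, leaving out chr17:39979801-39985800. There were 806 such bins among 11578781 autosomal bins with IgG coverage, or 0.00696%, and bins at most 1 kb apart were merged into 148 blocks. The libraries were made by chromatin immunoprecipitation and sequencing (ChIP-seq) from livers of C57Bl/6 males aged 2 to 3 months. One library each was made with an antibody to the kinase mTOR (Abcam), with an antibody to the orphan nuclear receptor ERRα (Epitomics) and with rabbit IgG (Santa Cruz). The labels name no treatment or genetic change for any of them. For mTOR and for ERRα, 8 immunoprecipitations were combined, starting from pooled chromatin of 26 livers, so animals cannot be compared; for IgG such numbers were not given in the sources used here. Each group was a single library, so every comparison is one of libraries and has no replicate check.

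Mouse chromosomes have their centromere at the low-numbered end, next to long tandem arrays of satellite DNA. Genome assemblies hold only a small part of such arrays and of other sequences present in many copies. Reads from all copies can then be placed on the few that are assembled, and high coverage arises there with any antibody, which is why such places are often masked in ChIP-seq work. The nuclear genome also holds inserted copies of mitochondrial DNA, onto which mitochondrial reads can be placed.

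Coverage is given as the authors scaled it, to 10000000 tags per library. On that scale 1 tag was worth 0.16, 0.135 and 0.145 units in the mTOR, ERRα and IgG libraries, whose headers state 62500000, 74200000 and 68800000 tags. An IgG value of 10 stood for about 92.0 tags in a bin and was 15.9 times the mean of 0.627 over bins with IgG coverage. Ratios carry 95% Clopper-Pearson intervals, computed from approximate tag numbers, and shares carry 95% Wilson intervals. Both kinds cover counting error only, and they are too narrow where tags are copies of each other. The IgG level chose the bins, so ratios over IgG are descriptions, while the ratio of mTOR to ERRα did not enter the choice. Bins just outside the limit, with IgG above 9 up to 10, numbered 77 and had median coverage of 8.92 (mTOR), 8.81 (ERRα) and 9.50 (IgG). Bins just inside, up to 11, numbered 55 and had medians of 9.83, 9.30 and 10.5.

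Most of the bins were bright in every library. Coverage exceeded 10 in all 3 libraries in 723 of the 806 bins; in the mTOR library 758 bins and in the ERRα library 737 bins did so. The median bin stood at 23.4 in the mTOR library, 21.9 in the ERRα library and 23.9 in IgG, and the lowest at 6.24, 6.63 and 10.1. The highest bin reached 115678, 105445 and 122417. No repeat annotation of build mm9 was used here, so whether the blocks are repeats was not tested, and they are described by level and position.

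The bright bins held 4.65% of all autosomal coverage in the mTOR library (interval 4.65 to 4.66), 4.27% in the ERRα library (4.26 to 4.27) and 4.93% in IgG (4.92 to 4.93). The order IgG, mTOR, ERRα depends on the track that chose the bins. Bins chosen above 10 in the mTOR track were another and larger set, 2037 bins, and that choice favours bins high in mTOR. Their shares were 5.03% (mTOR), 4.29% (ERRα) and 4.94% (IgG). Most of the coverage in the IgG-chosen bins lay in a single block on chromosome 2, chr2:98502201-98507600. It held 3.65%, 3.34% and 3.88% of the autosomal coverage of the mTOR, ERRα and IgG libraries. The other 147 blocks held 1.00%, 0.929% and 1.05%. The 10 brightest blocks together held 97.0%, 96.9% and 97.2% of what the bright bins carried.

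**Figure D1:**
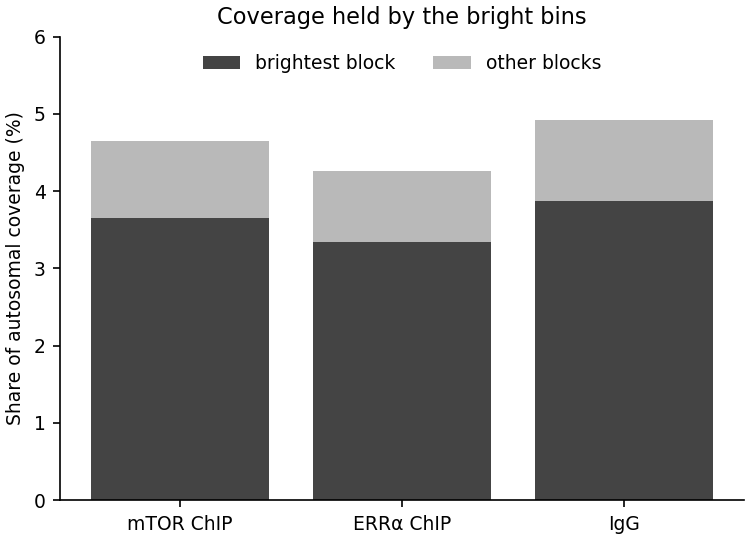
Share of autosomal coverage (percent, y axis) held by the bright bins in each of the 3 libraries (x axis), split into the brightest block (dark) and all other blocks (light). The bars reach 4.65%, 4.27% and 4.93%, and the dark part is 3.65%, 3.34% and 3.88%; each bar is 1 library, with no error bar.

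The highest values set a limit on how tags were counted. With a tag length near 149 bp and a single tag allowed per strand and start position, coverage could not exceed 47.8 units in the mTOR library, 40.2 in the ERRα library and 43.6 in IgG. The mean of a bin was above that ceiling in 162, 190 and 167 of the bright bins, and the highest single positions reached 174821, 158964 and 184644. Coverage above the ceiling requires more than 1 counted tag per start and strand.

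The blocks were small. A single bin made up 73 of them, 35 had 2 bins and 40 had 3 or more; the median width was 400 bp, and 15 blocks were 2 kb or longer. Together the bins covered 161.2 kb and the blocks, gaps included, spanned 197 kb. Over the 296 block ends the median IgG coverage was 13.9 in the outermost bright bin and 2.45 in the bin beside it. In the bin 1 kb further out it was 0.512. The same IgG track had set the block ends: the outermost bin had to exceed the IgG limit, and the bin beside it could not. A drop was therefore fixed by the choice of bins, and only its size is described. Whether the mTOR and ERRα libraries fell as sharply over these ends was not tested. Within the blocks 4.05% of positions had no IgG coverage.

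The longest block was another than the brightest. On chromosome 11, chr11:3027001-3100000 held 327 bright bins, 40.6% of all of them, at moderate and even levels with a mean of 25.9 in the mTOR library, 24.7 in the ERRα library and 26.1 in IgG. It carried 2.39% of the IgG coverage in the bright bins. Every position of it was covered, whereas 22.9% of the brightest block on chromosome 2 was not. The blocks at the low end of chromosome 9 also had gaps: 12% of chr9:2999801-3008600, 25.9% of chr9:3015001-3030400 and 32.9% of chr9:3034001-3038400 were without IgG coverage.

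Inside the long blocks the 3 libraries drew almost the same outline. Over the single positions of the chromosome 2 block Pearson's r was 1.00 between each pair of libraries, and it was 0.936 to 0.965 in the long chromosome 11 block. In 14 of the 15 blocks of 2 kb or more the lowest r of any pair was 0.787. The exception was chr18:3004401-3006400, where mTOR and IgG gave 0.998 while ERRα gave 0.616 with mTOR and 0.619 with IgG. Positions are not independent, share a reference sequence and its mapping, and lie within the same tags, so these values are descriptions.

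No common spacing of peaks was found. Autocorrelation of IgG coverage at distances of 50 to 600 bp had a local maximum in 12 of the 15 long blocks, at distances from 208 to 549 bp. Some of these maxima were negative, such as -0.577 in chr1:87487801-87490000 and -0.266 in chr10:57686601-57689400. Others were very low, such as 0.0101 in chr2:27351801-27358200, so a maximum alone does not show a spacing. The highest was 0.589 at 543 bp in the chromosome 2 block, where the mTOR and ERRα libraries gave the same distance. The next was 0.454 at 208 bp in chr2:181652001-181654000, with 204 and 202 bp in the mTOR and ERRα libraries. Tags of about 149 bp smooth the tracks, so that shorter spacings could not be resolved.

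In the bins chosen by IgG, both antibody libraries were slightly lower than IgG, a direction that for mTOR changed when the mTOR track chose the bins. Summed over the 806 bins, mTOR coverage was 0.941 times IgG (interval 0.939 to 0.942) and ERRα coverage 0.865 times IgG (0.863 to 0.866). Over all autosomal bins outside them the same ratios were 0.999 (0.99891 to 0.99962) and 1.005 (1.0047 to 1.0054). Choosing bins for high IgG favours ratios over IgG below 1, so nothing is read from this difference. In bins chosen above 10 in the mTOR track instead, mTOR over IgG was 1.015 and ERRα over IgG 0.867, and in bins chosen in the ERRα track they were 0.945 and 0.940. mTOR over ERRα, which did not use the IgG track, was 1.088 in the bright bins (1.0862 to 1.0898) and 0.994 elsewhere. These sums follow the chromosome 2 block; without it they were 0.951 for mTOR over IgG, 0.883 for ERRα over IgG and 1.08 for mTOR over ERRα. With 1 library per antibody, the antibody and the library cannot be told apart.

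The brightest blocks gave nearly the same pair of ratios wherever they lay. The chromosome 2 block had mean coverage per bright bin of 13897 in the mTOR library, 12738 in the ERRα library and 14819 in IgG, so that mTOR was 0.938 times (0.936 to 0.939) and ERRα 0.860 times (0.858 to 0.861) IgG. At the start of chromosome 9, chr9:2999801-3008600 had 399, 366 and 425 and ratios of 0.940 and 0.861. Its neighbour chr9:3015001-3030400 had 305, 282 and 327, with 0.933 and 0.861. Far from any end, chr9:35112601-35113400 had 2692, 2496 and 2910, with 0.925 and 0.858. These 4 blocks lay within 0.925 to 0.940 for mTOR and 0.858 to 0.861 for ERRα, although their mean IgG coverage ran from 327 to 14819.

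The next blocks by summed IgG followed the same pattern, with 2 departures. On chromosome 6, chr6:103598801-103599400 had ratios of 0.937 for mTOR and 0.856 for ERRα, and chr12:3109801-3110200 had 0.923 and 0.860. On chromosome 9, chr9:3034001-3038400 had 0.940 and 0.855, and chr9:3031801-3032800 had 0.931 and 0.869. The long block chr11:3027001-3100000 stood closer to IgG, at 0.990 (0.980 to 1.00) for mTOR and 0.944 (0.935 to 0.953) for ERRα. The tenth, chr17:13743401-13746200, had 91.1, 75.3 and 90.7 units, which put mTOR at 1.00 and ERRα at 0.830 times IgG. Of the 147 blocks other than that on chromosome 2, 94 had counting intervals that included both ratios of the chromosome 2 block, 114 that for mTOR and 117 that for ERRα. Many of these intervals were wide, so inclusion does not show that the ratios were equal.

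Scatter around these ratios shrank as coverage rose. In the 321 bins with IgG above 10 up to 20, mTOR over IgG had a median of 0.959 and quartiles of 0.877 and 1.04, and ERRα over IgG a median of 0.903 and quartiles of 0.830 and 0.989. In the 27 bins above 1000, which lay in 7 blocks, the medians were 0.9335 (quartiles 0.9245 and 0.9395) and 0.8585 (0.8551 and 0.8633). All 27 had counting intervals below 1 for both antibodies. The upper bound of a bin's mTOR interval was 1.70 times its lower bound in the median of the dimmest class and 1.03 times in the brightest.

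**Figure D2:**
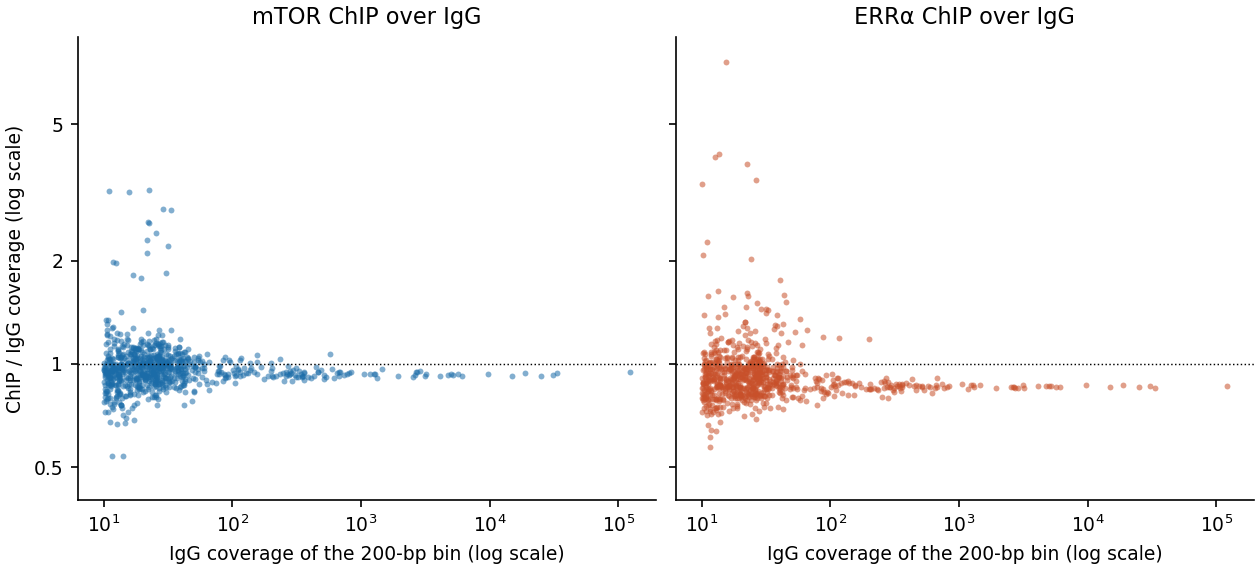
Ratio of mTOR (left) and ERRα (right) to IgG coverage (y axis, log scale) against IgG coverage (x axis, log scale) for each of the 806 bright bins; the dotted line marks a ratio of 1. Above an IgG level of 1000 the 27 points lie within 0.907 to 0.969 for mTOR and 0.844 to 0.876 for ERRα, while the dimmer bins spread on both sides and a few stand far above.

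Few bright bins departed by 1.5-fold or more, computed with 0.2 added to both values. mTOR was at least 1.5-fold higher than IgG in 16 of 806 bins (1.99%) and lower in 2, against 10.7% and 13.1% of all covered bins. ERRα was higher in 18 bins (2.23%) and lower in 4, against 10.2% and 12.8% of covered bins. For mTOR over ERRα the counts were 20 higher and 21 lower, against 12.1% and 11.9%. Covered bins hold far fewer tags and scatter more, so these shares are not a like-for-like comparison. Among the 10054 bins with IgG above 2 up to 10, mTOR was higher than IgG in 2.1% and lower in 32.9%, ERRα was higher than IgG in 1.63% and lower in 33.3%, and mTOR over ERRα passed the fold upward in 10.3% and downward in 8.95%. Both sets of bins were selected by their IgG level, and nothing is read from the shares against IgG.

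Among the 40 blocks of 3 or more bins, the mTOR ratio was narrow and the ERRα ratio was not. mTOR over IgG ran from 0.850 to 1.08. The 5 lowest were chr18:82390201-82390800 (0.850), chr16:3231601-3237000 (0.887), chr11:3000201-3002400 (0.892), chr9:13422601-13423200 (0.908) and chr4:3007601-3011600 (0.909). The 5 highest were chr3:8245201-8246600 (1.08), chr17:3081401-3083000 (1.07), chr2:98176001-98177400 (1.05), chr2:181652001-181654000 (1.04) and chr5:80242401-80243800 (1.01), and the counting interval of each of these included 1. ERRα over IgG had its 5 lowest values at chr18:82390201-82390800 (0.767), chr9:13422601-13423200 (0.817), chr6:29697801-29699000 (0.817), chr16:3231601-3237000 (0.828) and chr17:13743401-13746200 (0.830). All 5 had intervals below 1.

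Against these, 5 blocks carried ERRα well above IgG, with a gap between the fifth value, 1.32, and the sixth, 1.12. The highest was chr18:3004401-3006400, with mean coverage of 30.6 in the mTOR library, 55.6 in the ERRα library and 30.5 in IgG, or 1.82 times IgG for ERRα (1.73 to 1.91) and 1.00 for mTOR. Next were chr13:3372201-3373000 at 1.5 (1.39 to 1.62), chr10:21862201-21863000 at 1.44, chr15:74916001-74917600 at 1.43 and chr4:118220601-118221400 at 1.32. In these 5 blocks mTOR over IgG was 0.923 to 1.01, and mTOR over ERRα had its 5 lowest values there, from 0.551 to 0.731. ERRα is a sequence-specific DNA-binding receptor; whether its binding motif lies in these blocks was not tested.

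The ERRα excess was uneven along 4 of these blocks. In the chromosome 18 block it filled the first part: at chr18:3004801-3005000 ERRα reached 118 against 15.5 in IgG and 15.6 in the mTOR library, 7.61 times IgG (6.37 to 9.09). It extended outside the bright bins, where chr18:3004201-3004400 had 37.2 against 7.41 in IgG. From chr18:3005201-3005400 on, where ERRα was 44.7 and IgG 39.5, the ratio stayed between 0.989 and 1.46 to the end of the block, although IgG rose to 88.3 there. In the chromosome 15 block the ratio peaked at 3.82 in chr15:74916401-74916600 (85.8 against 22.5 in IgG and 22.5 in the mTOR library) and was 1.18 in the brightest bin, chr15:74917201-74917400 (236 against 199.7). In the chromosome 13 block the ratio rose towards the high-numbered side, from 1.23 in its first bin to 2.27 in its last, and was 6.46 at chr13:3373201-3373400 beyond it, where IgG was 2.31. In the chromosome 10 block it lay towards the low-numbered side, with 4.54 just before the block at chr10:21862001-21862200 (37.0 against 8.16 in IgG), 2.02 in its first bin and 1.14 in its last. In the chromosome 4 block all 4 bins lay between 1.24 and 1.44.

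High mTOR over IgG was found only in very short blocks, which fall outside the rule for named regions and were singled out after their values were seen. mTOR was at least 1.5 times IgG in 13 of 148 blocks (8.78%), all of 1 or 2 bins, at 1.81 to 3.21 times. Of all covered bins, which hold far fewer tags, 10.7% passed the same fold, and of bins with IgG above 2 up to 10 it was 2.1%. Neither share is a like-for-like comparison, so the number of such blocks is not read as a result about them. On chromosome 11, chr11:108873001-108873400 had mean coverage of 75.9 in the mTOR library, 22.9 in the ERRα library and 27.9 in IgG, or 2.72 times IgG for mTOR (2.45 to 3.02) and 0.820 for ERRα. On chromosome 5, chr5:147072601-147072800 had 72.0, 18.4 and 22.4, or 3.21 times (2.74 to 3.79). chr13:97960401-97960600 stood at 3.17, chr16:57391601-57391800 at 2.83 and chr1:24619801-24620200 at 2.65. In these 5 blocks mTOR alone was high, with ERRα at 0.820 to 1.05 times IgG.

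**Figure D3:**
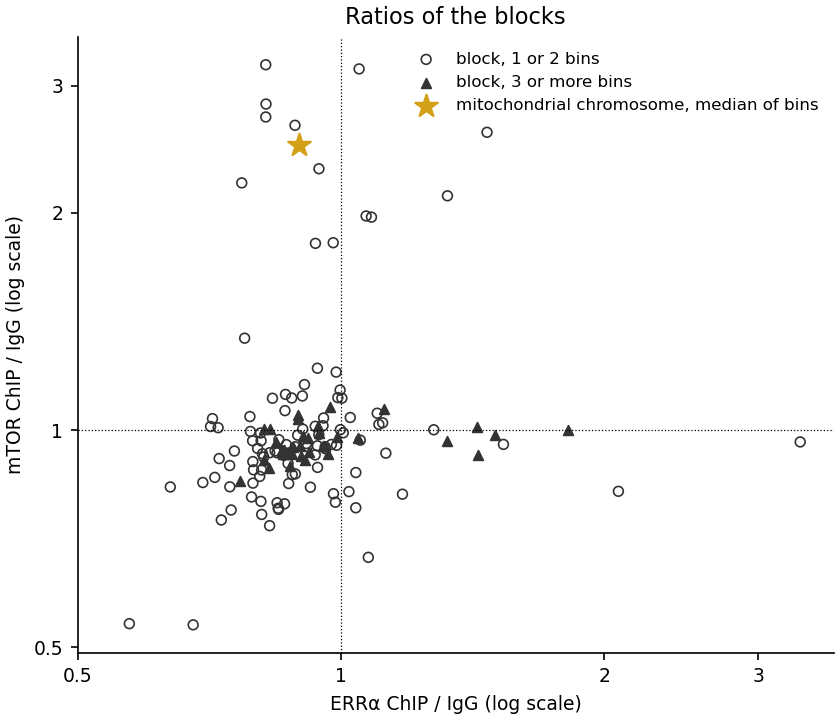
mTOR over IgG (y axis) against ERRα over IgG (x axis), both on log scales, for the 148 blocks; circles are blocks of 1 or 2 bins, triangles blocks of 3 or more, and the star is the median over bins of the mitochondrial chromosome. Most blocks crowd just below 1 on both axes, 13 short blocks rise to between 1.81 and 3.21 in mTOR, and 5 triangles extend to the right, up to 1.82 in ERRα.

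The mitochondrial chromosome, was measured in the same way and is given beside these blocks. Over its 57 bins with IgG coverage at every position, mTOR over IgG had a median of 2.48 (5th to 95th percentile 2.00 to 3.72) and ERRα over IgG a median of 0.894 (0.803 to 1.75). Of the 13 blocks, 9 had an mTOR ratio within that range for mTOR. They were chosen for a high mTOR ratio, so nothing is read from this count. Whether their reads came from mitochondrial DNA was not tested. ERRα in the 13 blocks was above IgG beyond counting error in 2, below in 3, and not distinguishable from it at this depth in 8. Over all 148 blocks these numbers were 11, 54 and 83. The 2 with ERRα above IgG were near the high-numbered ends of their chromosomes. chr19:61275601-61275800, 0.0666 Mb from the last covered position, had 57.6 in the mTOR library, 32.7 in the ERRα library and 22.3 in IgG. chr1:197067801-197068000, 0.127 Mb from that position, had 46.1, 28.9 and 21.8. Such a place was not particular to them: chr9:123371001-123371200, also among the 13, lay 0.705 Mb from its high-numbered end. ERRα there was 0.943 times IgG (0.771 to 1.15).

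Without the pseudocount, ERRα was at least 1.5 times IgG in 5 of 148 blocks, and in all 5 the interval of mTOR over IgG included 1. With the pseudocount 4 blocks (2.7%) passed, against 10.2% of all covered bins, which hold far fewer tags. None of the 5 was among the 13. With so few blocks, nothing is read from these numbers or from the lack of overlap. The highest of the 5 was a lone bin, chr5:17403601-17403800, with 9.73 in the mTOR library, 33.8 in the ERRα library and 10.1 in IgG. ERRα was 3.35 times IgG there (2.66 to 4.26). chr16:3116201-3116400 had 8.38, 21.1 and 10.2, or 2.08 times, and the third short block, chr11:53953601-53954200, was at 1.53. The remaining 2 were the chromosome 18 and 13 blocks above.

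**Figure D4:**
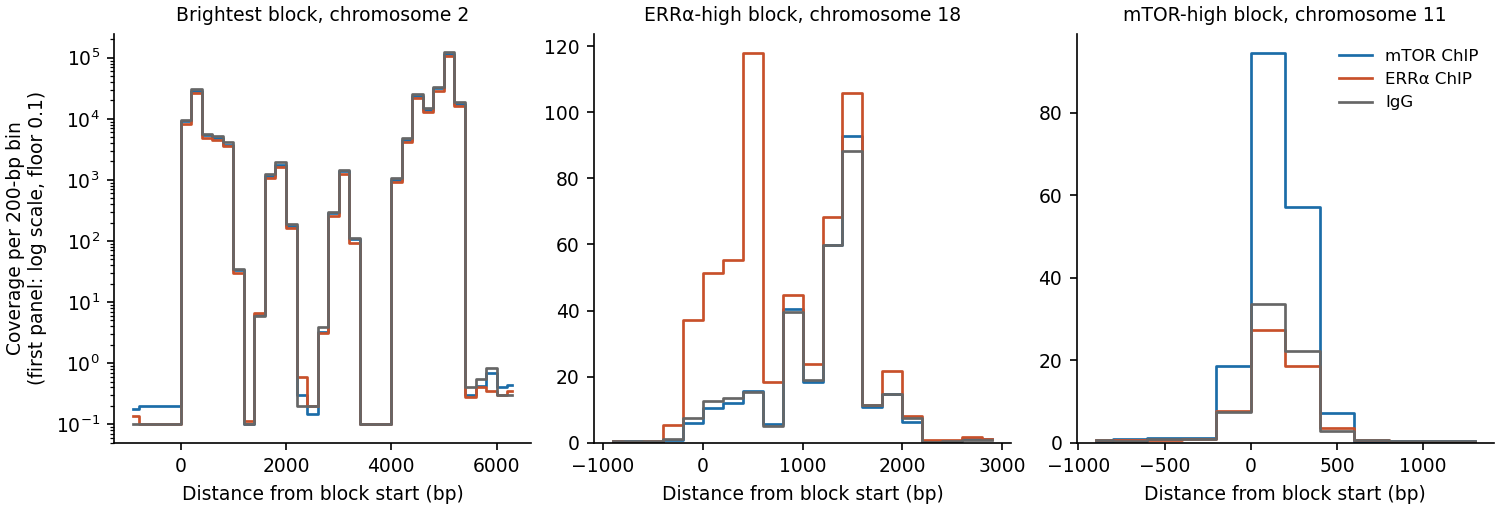
Mean coverage per 200-bp bin (y axis, log scale with a floor of 0.1 in the first panel) against distance from the block start (x axis, bp) in the 3 libraries, for the brightest block on chromosome 2, the chromosome 18 block with the highest ERRα ratio among blocks of 3 or more bins and an mTOR-high block on chromosome 11. The lines coincide in the first panel, ERRα alone reaches 118 in the early part of the second, and mTOR alone stands high in the third, with a mean of 75.9 over its 2 bright bins.

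The 5 highest values of mTOR over ERRα among the 40 longer blocks lay where ERRα was below IgG, at 0.817 to 0.893 times, and mTOR was 0.963 to 1.05 times IgG. They were 1.23 at chr6:29697801-29699000 (47.9 in the mTOR library, 39.0 in the ERRα library, 47.7 in IgG), 1.21 at chr17:13743401-13746200, 1.18 at chr2:98176001-98177400, 1.16 at chr2:181652001-181654000 and 1.14 at chr8:19924001-19925800. At the first of these mTOR over IgG was 1.00 (0.949 to 1.06), a difference not detectable at this depth.

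Bright bins were concentrated near the low-numbered chromosome ends. Within 5 Mb of the first or last covered position of a chromosome lay 547 of the 806 bins (67.9%) and 40 of the 148 blocks (27.0%), against 7.79% of all covered bins. The sizes of these shares depend on the choices made. Leaving out the long chromosome 11 block, the share of bins was 45.9%, and in bins chosen in the ERRα and mTOR tracks it was 28.8% and 32.1%. The share of blocks was 43.5% when only adjacent bins were merged, 16.8% at an IgG minimum of 5, and 13.1% and 14.5% for bins chosen in the ERRα and mTOR tracks. All of these were above the 7.79% of covered bins. The low-numbered, centromeric ends held 525 bins (65.1%) and 29 blocks (19.6%), against 3.79% of covered bins. The high-numbered ends held 22 bins (2.73%) and 11 blocks (7.43%), against 4.0% of covered bins. There the share of bins was below that of covered bins and the share of blocks above it. Closer in, within 1 Mb of a high-numbered end, both were above it. That stretch held 17 bins (2.11%) and 9 blocks (6.08%), against 0.793% of covered bins. A few blocks held most of the 525 bins: 327 lay in the long chromosome 11 block, 55 in chr9:3015001-3030400 and 29 in chr9:2999801-3008600. Within 1 Mb of an end the figures were 65.8% of bins and 21.6% of blocks, against 1.55% of covered bins. Most of the coverage lay elsewhere, but in a single block. The 40 blocks near an end carried 14.0% of the IgG coverage in the bright bins and the 108 others 86.0%. Of that coverage the chromosome 2 block, 95.5 Mb from the low end, alone carried 78.7%. Next by summed IgG were chr9:3015001-3030400 and chr9:2999801-3008600, both at a low end.

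**Figure D5:**
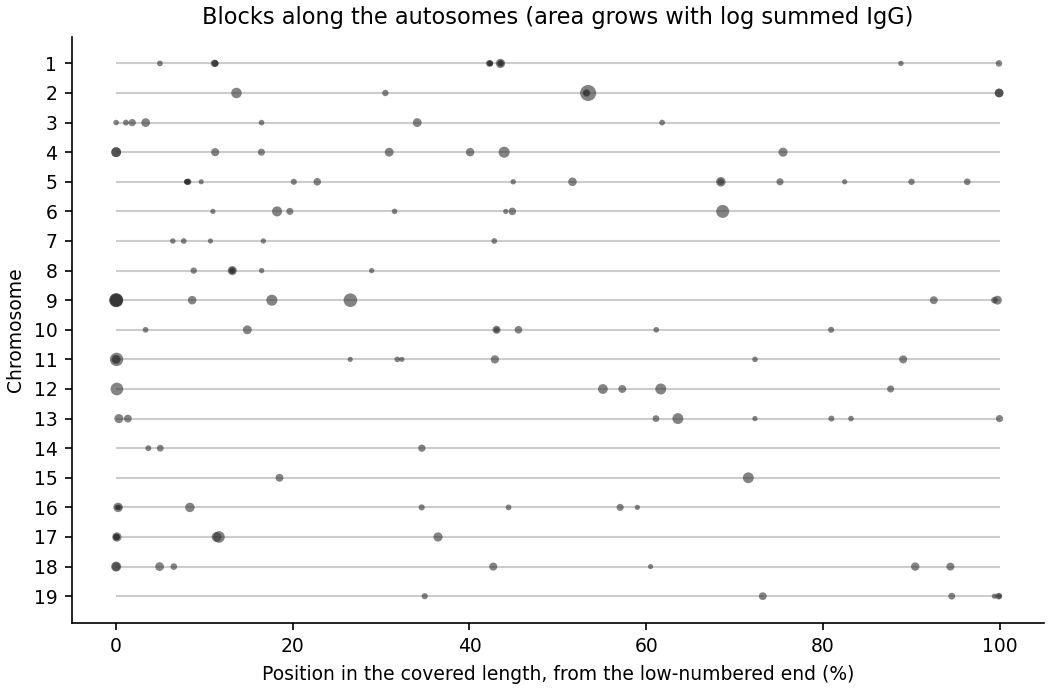
Position of the 148 blocks as a percentage of the covered length of each autosome (x axis, from the low-numbered end; y axis, chromosome); larger points have higher summed IgG coverage on a log scale. Of the blocks, 29 lie within 5 Mb of the low-numbered end and 11 within 5 Mb of the other end; the largest point is the chromosome 2 block near the middle of its chromosome.

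On 12 chromosomes a block lay within 1 Mb of an end. The nearest to the low end were chr9:2999801-3008600 at the first covered position, chr11:3000201-3002400, chr3:3001801-3002000, chr18:3004401-3006400, chr4:3007601-3011600, chr17:3020001-3020600, chr16:3116201-3116400 and chr12:3109801-3110200. Nearest to the high end were chr19:61340201-61340400, chr13:120276401-120276800, chr2:181665001-181665600 and chr1:197067801-197068000. Their mean IgG coverage ran from 10.2 at chr16:3116201-3116400 to 1916 at chr12:3109801-3110200. Apart from the chromosome 9 and 12 blocks, the mean IgG coverage of the other 10 was at most 30.5.

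Median ratios over IgG were close near the ends and further in. Blocks within 5 Mb of an end had a median mTOR over IgG of 0.943 (quartiles 0.924 and 1.02) and blocks further in 0.951 (0.886 and 1.01). For ERRα over IgG the medians were 0.887 and 0.886, and for mTOR over ERRα 1.07 and 1.08. The 2 kinds of end differed more: mTOR over ERRα had a median of 1.05 (quartiles 0.988 and 1.09) over the 29 blocks at the low end and 1.23 (0.987 and 1.66) over the 11 at the high end, with overlapping quartiles and no test. Both sets hold short blocks singled out above for high mTOR over IgG. At the high end these were chr19:61275601-61275800, chr1:197067801-197068000 and chr9:123371001-123371200, with mTOR over ERRα of 1.76, 1.60 and 2.44. At the low end it was chr3:5860601-5860800, with 2.86. The spread of blocks over the chromosomes was uneven: chromosome 5 had the most, 18, and chromosome 15 the fewest, 2. By coverage, chromosome 2 held 78.9% of the IgG signal in the bright bins, chromosome 9 held 13.5% and chromosome 11 held 2.48%.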

How the data were processed

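ChIP-seq coverage was analysed for 3 libraries of mouse liver, grouped by sample title with 1 library per group: mTOR, ERRα and IgG. The authors deposited coverage (signal) tracks that were scaled to 10000000 tags, per the file headers. BWA 0.5.9 and MACS 1.4.1 are named in the submitters' processing notes, as is build mm9, without saying what each was used for; reads were single 50-bp reads per the labels' protocols. How duplicate and multiply placed reads were treated, and which program wrote the tracks, was not given in the sources used here. Coverage was averaged over 200-bp bins with uncovered positions as 0; bins with IgG above 10 were merged across gaps of at most 1 kb. Tags per bin were approximated with 149 bp per tag, the mean over the libraries of summed coverage per tag (149.5). Counts past 1.5-fold used a pseudocount of 0.2. Chromosome ends were the first and last covered positions. Regions named were the 10 brightest blocks, the 5 extremes of each ratio among blocks of at least 3 bins, and the blocks nearest to ends within 1 Mb. The members, regions and lists were chosen with earlier results of these data known. Binning, merging and intervals were tested on simulated data. Alternatives were IgG limits of 5 and 20, other tracks for the choice, other merging, bin sizes, scalings and end distances, and blocks left out; dropping the longest block and choosing bins in the mTOR track were added after seeing the data. No p-value is given. Chromosomes X, Y and M were outside the rule. Python 3.11.15, NumPy 2.4.6, pandas 2.3.3, SciPy 1.17.1 and Matplotlib 3.10.9 were used.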

Additional observations from a re-analysis of the deposited data

How the results depend on the processing

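Precision is limited by single libraries and by about 92.0 IgG tags in a bin at the limit. An IgG minimum of 5 gave 1665 bins in 422 blocks, library shares of 4.73% (mTOR), 4.34% (ERRα) and 5.01% (IgG), and 46.4% of bins and 16.8% of blocks near an end. A minimum of 20 gave 485 bins in 73 blocks, shares of 4.59%, 4.21% and 4.86%, an ERRα over IgG ratio of sums of 0.863, and 75.5% and 38.4% near an end. Bins chosen above 10 in the ERRα track numbered 2549 in 1248 blocks, with shares of 4.69%, 4.65% and 4.94%. For them the ratios of sums were 0.945 (mTOR over IgG), 0.940 (ERRα over IgG) and 1.01 (mTOR over ERRα), the medians over bins were 1.25, 13.5 and 0.120, all 3 on the other side of 1 from their values in the IgG-chosen bins, and 28.8% of bins and 13.1% of blocks lay near an end. Bins chosen in the mTOR track numbered 2037 in 754 blocks, with shares of 5.03%, 4.29% and 4.94%. There mTOR over IgG changed direction, to 1.015, ERRα over IgG was 0.867 and mTOR over ERRα 1.17, with medians of 14.5, 0.985 and 11.5, and 32.1% of bins and 14.5% of blocks near an end. By construction, choosing in an antibody track favours bins high in that library. Without the brightest block the shares were 1.00%, 0.929% and 1.05%, and the ratios of sums 0.951, 0.883 and 1.08. Choosing in the mTOR track and leaving out the longest block were alternatives added after seeing the data. Without the longest block there were 479 bins, shares of 4.53%, 4.16% and 4.81%, an ERRα over IgG ratio of 0.863 and 45.9% of bins near an end. Merging only adjacent bins gave 232 blocks, 43.5% of them near an end, and 100-bp bins gave 1634 bins. Scaling by coverage outside the bright bins gave 0.860 for ERRα over IgG and 1.09 for mTOR over ERRα. The other 36 values stayed within the counting interval, quartiles or 1.5-fold of the main ones. No paired analysis was possible because each group had 1 library.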

Other observations

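The same limit applied to the sex chromosomes, which the rule left out, gave 214 bright bins in 53 blocks on chromosome X and 381 bins in 24 blocks on chromosome Y of these male livers. Median coverage on chromosome X was 16.6 in the mTOR library, 16.4 in the ERRα library and 18.3 in IgG; on chromosome Y it was 29.7, 28.4 and 31.7. Summed over the bins, mTOR was 0.933 times IgG on chromosome X (exact 95% interval 0.924 to 0.942) and 0.932 times on chromosome Y (0.925 to 0.939). ERRα was 0.892 times (0.884 to 0.900) and 0.894 times (0.887 to 0.901) IgG. Both antibody libraries were thus below IgG there too, in bins chosen by their IgG level.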
